A study of Mus musculus with 10 samples.

Results

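Stressed hematopoietic stem cells (HSCs) were compared with normal HSCs within the libraries labelled Id1 knockout (KO): 2 stressed libraries (A and B) against 3 normal libraries (A, B and C), which are 5 of the 10 libraries of the series. Of the 20270 genes with deposited values, the 14348 with a log2 CPM (counts per library scaled to the same total) above 0 in at least 2 of these 5 libraries were tested, and 5922 were not. The question was which genes and pathways differed between stressed and normal HSCs when the transplanted marrow came from Id1-/- donors. All libraries held total RNA of C57BL/6 mouse HSCs, FACS-purified out of the marrow of primary recipients of lineage-negative Id1-/- marrow (KO-labelled) or Id1+/+ marrow (WT-labelled; 2 stressed and 3 normal libraries). The labels of both KO-labelled groups give 4 weeks after transplantation, and the series' design text gives 6 weeks. Neither source defines stressed and normal, describes how either was brought about, names the deleted part of Id1 or gives the recipients' age. Whether each replicate is its own animal or a pool is not stated either; p-values therefore reflect spread among these libraries alone, which may be technical.

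HSCs sit at the top of blood formation and are mostly quiescent in the adult marrow niche, where CDK inhibitors, cytokine signals and adhesion to the niche help to hold them. After transplantation they divide to refill the marrow, and a part of the HSC pool is primed toward the megakaryocyte and platelet lineage. Id1 is an inhibitor of E-protein transcription factors that lacks a DNA-binding domain and is induced by BMP and cytokine signals.

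Id1 (chr2:152736251-152737410, plus strand, mm10) was measured first, as the gene named in the labels. Its log2 CPM was 3.18 and 3.08 in the KO-labelled stressed libraries and 3.72, 3.40 and 3.27 in the KO-labelled normal libraries. It was 0.36 and 2.13 in the WT-labelled stressed libraries and 0.43, 0.79 and 1.66 in the WT-labelled normal libraries. Every KO-labelled library was thus above every WT-labelled library, which goes against the genotype label, and the libraries are called KO-labelled and WT-labelled throughout. The values are per gene, so reads from exons outside a deletion cannot be told apart from reads of an intact gene, and Id1 does not check the labels here. Between stressed and normal KO-labelled libraries Id1 differed by -0.34 (SE 0.51, limma adjusted p = 0.796).

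Estimated depth in the 10 libraries, read from the steps of the low values, was 25700000 to 33000000 reads. Quantile normalization moves these steps, so they do not give the reads of each library exactly. The same log2 CPM of -3.37 stood for 1 read in KO-labelled normal library A and for 3 reads in KO-labelled stressed library A. Depth and every fold bound against a floor of 3 reads are therefore approximate. The KO-labelled stressed libraries had 1733 and 2016 genes at 0 reads and the normal ones 1693 to 2211. The first principal component of the 5 KO-labelled libraries held 36.0% of the variance and separated the groups, with scores of -48.5 and -70.6 for stressed and 55.9, 30.6 and 32.5 for normal. All 8 HSC markers checked, among them Ly6a, Kit, Procr and Slamf1, passed the filter, and they summed to 2778 and 2843 CPM in stressed and 3351 to 3542 CPM in normal libraries. Summed markers of other cells were 27.2 and 33.5 against 28.0 to 35.0 CPM for granulocytes and monocytes, 20.9 and 16.6 against 15.0 to 21.8 CPM for macrophages, 24.7 and 20.9 against 24.6 to 32.7 CPM for erythroid cells, and 11.8 and 11.6 against 7.61 to 10.3 CPM for stroma and endothelium. Higher sums in both stressed libraries were found for B and plasma cells (168 and 177 against 7.09 to 12.9 CPM) and megakaryocytes (1052 and 1023 against 540 to 586 CPM). The same held for T and NK cells (96.0 and 95.6 against 60.1 to 65.6 CPM) and mast cells (8.15 and 11.6 against 5.26 to 6.05 CPM). The T and NK cell sum was nearly all Nkg7, and the mast cell sum was Cpa3 alone. Cd4 had 0 reads in both stressed libraries. Cd3e, Cd3d, Cd8a, Ms4a1, Pax5, Ly6g and Mcpt8 were not analysed here.

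Between stressed and normal KO-labelled HSCs, 699 of the 14348 genes were called by limma at an adjusted p under 0.05, which is 4.87% of the genes tested. Of these, 346 (2.41%) rose and 353 (2.46%) fell, and the median size of the called differences was 0.70 on the log2 scale. A change of at least 2-fold was found in 223 of them, 107 higher and 116 lower. The stressed and normal libraries did not overlap in any of the 699 called genes, but they also did not overlap in 33.9% of all genes tested, so separation by itself is common with 2 libraries against 3. Without stressed library A 294 genes were called, and without stressed library B 287. Of the 699 calls, 171 held without each single library. Some gene groups open with calls that did not hold, among them Cdkn1c, Srebf2 and Rps27. Where a named call was lost without a library, that library and the adjusted p without it are given, and where 2 or more libraries are named, each was left out on its own.

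Gene lists are described by how many of their tested members rose or fell and by their median log2 difference, against a median of 0.00051 over all 14348 genes. Each count is to be set beside the share called over all genes tested, 4.87% (2.41% higher and 2.46% lower). A count near that share is not a result about the list. Lists with more called than uncalled members were those of G2/M genes, mitochondrial DNA transcripts, megakaryocyte and platelet genes and, by the filter's own choice of members, immunoglobulin genes, and 495 of the 699 called genes were on no list. In bulk RNA, fewer cells of a type and less RNA per cell cannot be told apart, which holds for every level given.

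**Figure D1:**
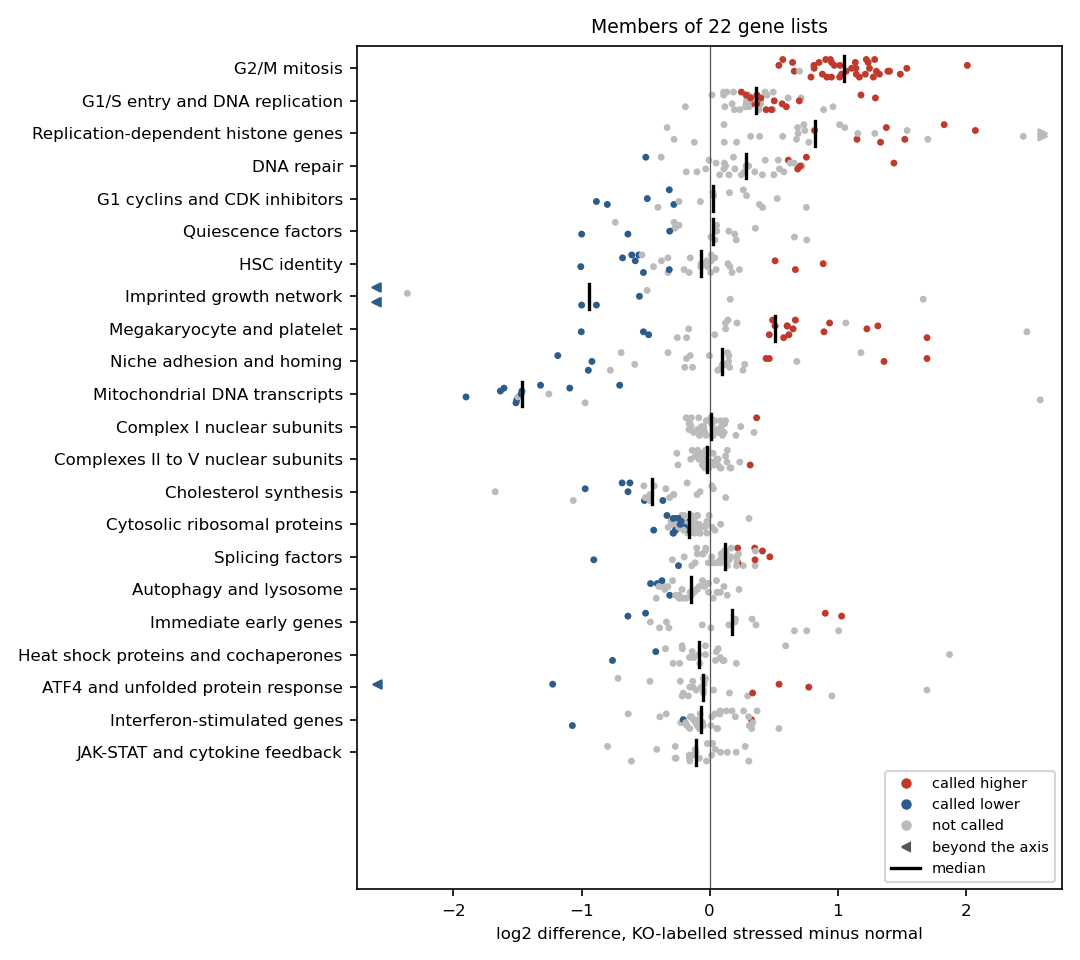
Log2 difference, stressed minus normal, of each member of 22 gene lists in KO-labelled HSCs (horizontal axis, log2 CPM difference); each point is a gene, called genes are coloured, the bar is the list's median and arrowheads mark values beyond the axis. The G2/M list lies to the right with 37 of 38 members called and the mitochondrial DNA transcripts to the left with 10 of 14 called.

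Genes of G2 phase and mitosis rose: 37 of 38 members were called higher in stressed HSCs and none lower, with a median log2 difference of 1.05 and a range of 0.54 to 2.01. The member not called was Kif2c, a microtubule depolymerase, at 0.70 (SE 0.21, limma adjusted p = 0.0846). Bub1b, a kinase of the spindle checkpoint, was measured at 161 and 168 CPM in the stressed libraries and 83, 73.9 and 68.7 CPM in the normal libraries (log2 difference 1.14, SE 0.10, limma adjusted p = 9.69e-05). Aurka, the kinase that matures spindle poles, was measured at 69.1 and 71.1 CPM in the stressed libraries and 25.3, 22 and 28.1 CPM in the normal libraries (log2 difference 1.49, SE 0.15, limma adjusted p = 0.00022). Aurkb, the kinase of the chromosomal passenger complex, was measured at 85.8 and 98.9 CPM in the stressed libraries and 30.1, 37 and 38 CPM in the normal libraries (log2 difference 1.40, SE 0.14, limma adjusted p = 0.000181). All 3 genes were higher in both stressed libraries than in any normal library. Top2a, the topoisomerase that untangles sister chromatids, was measured at 358 and 326 CPM in the stressed libraries and 209.9, 175 and 165 CPM in the normal libraries (log2 difference 0.91, SE 0.10, limma adjusted p = 0.000408). Cdc25c, the phosphatase that activates mitotic CDK1, was measured at 23.3 and 24.5 CPM in the stressed libraries and 6.05, 6.25 and 5.48 CPM in the normal libraries (log2 difference 2.01, SE 0.27, limma adjusted p = 0.00143). Cdc25c was the member that differed most. Ube2c, the ubiquitin-conjugating enzyme of the anaphase-promoting complex, had levels of 58.2 and 63.1 CPM against 25.5, 20.6 and 23.6 CPM (stressed against normal, log2 difference 1.39, SE 0.17, limma adjusted p = 0.000778). Plk1, the polo-like kinase of mitotic entry, had levels of 57.5 and 56.2 CPM against 28.4, 21.6 and 20.0 CPM (stressed against normal, log2 difference 1.30, SE 0.20, limma adjusted p = 0.00368). Mki67, which coats mitotic chromosomes and is the common proliferation marker, had levels of 284 and 254 CPM against 175, 128 and 147 CPM (stressed against normal, log2 difference 0.85, SE 0.12, limma adjusted p = 0.00238). Ube2c, Plk1 and Mki67 likewise showed no overlap between the groups. Cyclins Ccnb1 (1.17, SE 0.16, adjusted p = 0.00176), Ccnb2 (1.03, SE 0.11, adjusted p = 0.000408) and Ccna2 (1.22, SE 0.15, adjusted p = 0.000814), the kinesins Kif11 (1.29) and Kif20a (1.01), and Nusap1 (1.32), a spindle-associated protein, were among the other calls in the same limma fit. The list had 25 calls without stressed library A and 26 without stressed library B. Genes of the list beyond Bub1b, Aurkb, Aurka, Top2a and Cdc25c were named after their values were seen.

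**Figure D2:**
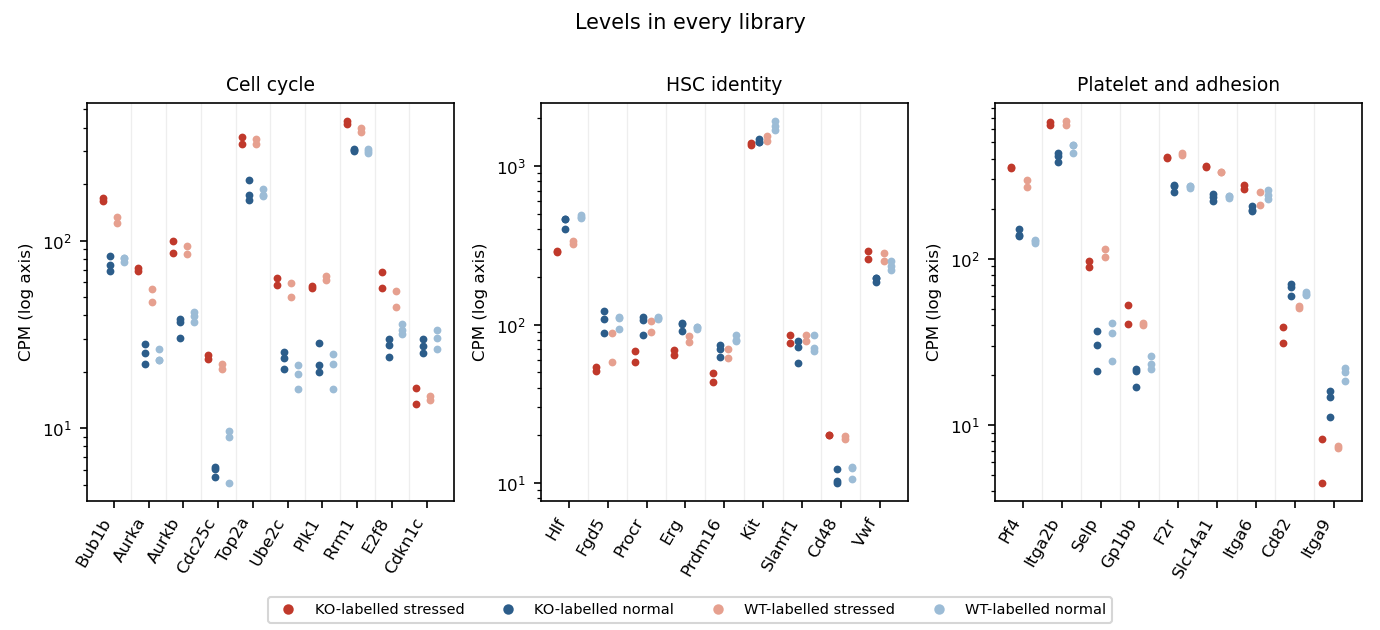
CPM (log axis) of 10 cell-cycle genes, 9 HSC identity genes and 9 platelet and adhesion genes, with 1 point per library in KO-labelled and WT-labelled stressed and normal groups. In the cell-cycle panel the KO-labelled stressed points lie above the normal points for every gene except Cdkn1c, where they lie below.

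The promoters of 4 of the called mitotic genes are shown because the list moved together and its members are known for 2 sequence elements, the CHR (searched as TTTGAA or TTCGAA) and the CCAAT box (CCAAT), both searched on both strands. The windows are RefSeq GRCm38.p6, which span the start site, 5′ to 3′ on the gene's strand, with matches to either element in capitals. They are Aurka (chr2:172370521-172370820, minus strand), Ube2c (chr2:164769679-164769978, plus strand), Plk1 (chr7:122159185-122159484, plus strand) and Nusap1 (chr2:119618048-119618347, plus strand).
Aurka: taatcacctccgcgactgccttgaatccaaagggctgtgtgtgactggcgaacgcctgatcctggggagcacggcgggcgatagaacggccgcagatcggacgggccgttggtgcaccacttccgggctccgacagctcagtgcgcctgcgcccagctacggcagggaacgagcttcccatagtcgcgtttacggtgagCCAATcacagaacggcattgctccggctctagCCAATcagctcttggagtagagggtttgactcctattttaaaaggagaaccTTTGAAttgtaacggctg
Ube2c: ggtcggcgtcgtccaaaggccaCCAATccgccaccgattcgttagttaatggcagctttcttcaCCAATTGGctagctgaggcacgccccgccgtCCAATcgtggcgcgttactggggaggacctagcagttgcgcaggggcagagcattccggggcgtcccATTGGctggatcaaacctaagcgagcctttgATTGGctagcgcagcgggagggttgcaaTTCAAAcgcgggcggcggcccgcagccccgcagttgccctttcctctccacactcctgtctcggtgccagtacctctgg
Plk1: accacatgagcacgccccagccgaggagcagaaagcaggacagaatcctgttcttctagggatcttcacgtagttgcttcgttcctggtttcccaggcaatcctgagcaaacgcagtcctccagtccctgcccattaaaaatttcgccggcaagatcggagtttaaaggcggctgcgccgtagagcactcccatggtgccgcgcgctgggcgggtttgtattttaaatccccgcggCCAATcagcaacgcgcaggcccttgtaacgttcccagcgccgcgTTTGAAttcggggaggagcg
Nusap1: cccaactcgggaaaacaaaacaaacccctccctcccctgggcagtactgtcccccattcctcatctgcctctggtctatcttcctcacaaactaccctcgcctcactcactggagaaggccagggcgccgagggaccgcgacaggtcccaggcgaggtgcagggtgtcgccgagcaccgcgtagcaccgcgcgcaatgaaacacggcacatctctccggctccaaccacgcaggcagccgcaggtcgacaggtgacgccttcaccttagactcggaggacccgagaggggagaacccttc
Aurka held 1 CHR match and 2 CCAAT matches, Plk1 1 and 1, Ube2c 1 CHR match on the minus strand and 6 CCAAT matches, of which a forward and a reverse one overlap, and Nusap1 neither. Of the 38 members, 32 had a window, and of their 34 windows 79.4% held a CHR match, 79.4% a CCAAT match and 70.6% both. The shares over all 32851 promoter windows were 19.2%, 37.4% and 7.52%. Of the 19 windows of the cholesterol synthesis genes described below, 10.5% held a CHR match, 84.2% a CCAAT match and 10.5% both. A high share of CCAAT matches is thus not particular to the mitotic list. A match is a description of the letters, not a binding site.

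Genes of S-phase entry and DNA replication moved the same way by less: 17 of 48 were called higher and none lower, with a median of 0.36. Rrm1, the large subunit of ribonucleotide reductase, was measured at 418 and 431 CPM in the stressed libraries and 309, 303 and 299 CPM in the normal libraries (log2 difference 0.48, SE 0.05, limma adjusted p = 0.000408). E2f8, an atypical E2F repressor active in S phase, was measured at 68.4 and 55.6 CPM in the stressed libraries and 30.0, 24.1 and 27.9 CPM in the normal libraries (log2 difference 1.18, SE 0.15, limma adjusted p = 0.00131). Both genes were higher in each stressed library than in any normal library. Lig1, the ligase of Okazaki fragments, had levels of 214 and 224 CPM against 172, 141 and 152 CPM (stressed against normal, log2 difference 0.50, SE 0.09, limma adjusted p = 0.00912). Rrm2, the small subunit of ribonucleotide reductase, had levels of 141 and 139 CPM against 100.5, 87.1 and 90.0 CPM (stressed against normal, log2 difference 0.60, SE 0.11, limma adjusted p = 0.0101). The replicative helicase subunits Mcm7 (0.36, adjusted p = 0.019), Mcm2 (0.28, 0.0244) and Mcm3 (0.25, 0.0294), named after their values were seen, were also called by limma. The 17 calls of the list became 2 without stressed library A, 3 without stressed library B, and 9 without normal library B or C. Lig1 was not called without stressed libraries A or B (limma adjusted p = 0.0597 to 0.0969), nor Rrm2 without stressed libraries A or B (limma adjusted p = 0.0792 to 0.0844). Mcm7 was not called without stressed libraries A or B (limma adjusted p = 0.115 to 0.138), nor Mcm2 without stressed libraries A or B or normal libraries B or C (limma adjusted p = 0.0604 to 0.177). Mcm3 was not called without stressed libraries A or B or normal library A (limma adjusted p = 0.0585 to 0.169).

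Of the replication-dependent histone genes, a list added after the values were seen, 31 of 56 passed the filter, 7 rose and none fell, with a median of 0.82. Most of these transcripts lack a poly(A) tail. Hist1h2ae, a core histone H2A gene, was measured at 57.8 and 52.2 CPM in the stressed libraries and 22.7, 20.2 and 22.5 CPM in the normal libraries (log2 difference 1.33, SE 0.14, limma adjusted p = 0.000305). Hist1h1b, a linker histone gene, had levels of 32.8 and 33.3 CPM against 12.6, 15 and 17.5 CPM (stressed against normal, log2 difference 1.15, SE 0.18, limma adjusted p = 0.00456). Hist1h1e, another linker histone gene, had levels of 89.5 and 66.8 CPM against 42.5, 43 and 46.1 CPM (stressed against normal, log2 difference 0.82, SE 0.14, limma adjusted p = 0.00691). Hist1h3d, a core histone H3 gene, had levels of 5.42 and 7.29 CPM against 1.61, 1.09 and 1.89 CPM (stressed against normal, log2 difference 2.07, SE 0.41, limma adjusted p = 0.015). In all 4 the groups did not overlap, and near-identical copies of these genes can share reads. The 7 calls became 2 without stressed library A or B and 4 without normal library C. Hist1h1b was not called without stressed library B (limma adjusted p = 0.0504), nor Hist1h1e without stressed library A (limma adjusted p = 0.0816). Hist1h3d was not called without stressed libraries A or B (limma adjusted p = 0.0669 to 0.142).

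In the DNA repair list, 5 of 33 members rose and 1 fell, with a median of 0.28. H2afx, the histone variant phosphorylated at double-strand breaks, was measured at 162 and 148 CPM in the stressed libraries and 100.4, 101 and 101 CPM in the normal libraries (log2 difference 0.61, SE 0.09, limma adjusted p = 0.00248). Fanci, a Fanconi anemia protein, had levels of 35.8 and 43.6 CPM against 9.39, 17.3 and 19.1 CPM (stressed against normal, log2 difference 1.44, SE 0.29, limma adjusted p = 0.0164). Fanca (0.69, SE 0.15, adjusted p = 0.0269) and Chek1 (0.75, SE 0.19, adjusted p = 0.0416), the S-phase checkpoint kinase, rose as well and were named after their values were seen. Trp53bp1, a scaffold of end joining, had levels of 131 and 146 CPM against 189, 214 and 184 CPM (stressed against normal, log2 difference -0.50, SE 0.09, limma adjusted p = 0.0114). It was the only member of the list called lower. The 5 rises became 1 without stressed library A, 2 without stressed library B and 3 without normal library A or C. Fanci was not called without stressed libraries A or B (limma adjusted p = 0.0791 to 0.153), nor Fanca without stressed libraries A or B or normal libraries A or C (limma adjusted p = 0.0646 to 0.2). Chek1 was not called without stressed libraries A or B, normal libraries A or C, WT-labelled stressed libraries A or B or WT-labelled normal libraries A, B or C (limma adjusted p = 0.0528 to 0.262), nor Trp53bp1 without stressed library A (limma adjusted p = 0.119).

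Among G1 cyclins, CDK inhibitors and their regulators, 5 of 17 fell and none rose, with a median of 0.025. Cdkn1c, the p57 CDK inhibitor of HSC quiescence, was measured at 16.4 and 13.5 CPM in the stressed libraries and 30.0, 25.1 and 27.5 CPM in the normal libraries (log2 difference -0.88, SE 0.17, limma adjusted p = 0.0129). Cdkn1b, the p27 CDK inhibitor, was measured at 13.1 and 19.4 CPM in the stressed libraries and 24.1, 31.7 and 27.9 CPM in the normal libraries (log2 difference -0.80, SE 0.20, limma adjusted p = 0.0455). Both inhibitors were lower in the 2 stressed libraries than in any of the 3 normal ones. Ccnd2, a D-type cyclin, had levels of 413 and 442 CPM against 527, 518 and 512 CPM (stressed against normal, log2 difference -0.28, SE 0.06, limma adjusted p = 0.0167). Ccng1, a cyclin induced by p53, had levels of 95.8 and 102 CPM against 129, 146 and 143 CPM (stressed against normal, log2 difference -0.49, SE 0.10, limma adjusted p = 0.0139). Mycn, a MYC family transcription factor, had levels of 274 and 271 CPM against 327, 352 and 338 CPM (stressed against normal, log2 difference -0.32, SE 0.06, limma adjusted p = 0.01). These 3 differences were under 0.50 on the log2 scale. Of 18 quiescence factors tested, 3 fell and none rose, with a median of 0.028. Ndn, the imprinted growth suppressor necdin, had levels of 28.1 and 30.7 CPM against 62.6, 59.8 and 54.1 CPM (stressed against normal, log2 difference -1.00, SE 0.19, limma adjusted p = 0.0119). Egr1, an immediate early transcription factor that is high in quiescent HSCs, had levels of 35.7 and 36.6 CPM against 58.1, 52.3 and 58.5 CPM (stressed against normal, log2 difference -0.64, SE 0.14, limma adjusted p = 0.0226). Txnip, the thioredoxin-interacting protein, had levels of 653 and 617 CPM against 788, 779.9 and 797 CPM (stressed against normal, log2 difference -0.31, SE 0.04, limma adjusted p = 0.00142). Each of the 3 was lower in both stressed libraries than in every normal library. The 5 falls of the first list became 1 without stressed library A or B, and the 3 of the latter became 1 without either. Ccnd1, another D-type cyclin named for this alone, was called higher without normal library B (adjusted p = 0.0219). Cdkn1c was not called without stressed library B (limma adjusted p = 0.127), nor Cdkn1b without stressed library A, normal libraries B or C, WT-labelled stressed libraries A or B or WT-labelled normal libraries A, B or C (limma adjusted p = 0.0593 to 0.319). Ccnd2 was not called without stressed libraries A or B (limma adjusted p = 0.0564 to 0.161), nor Ccng1 without stressed libraries A or B (limma adjusted p = 0.0685 to 0.119). Mycn was not called without stressed libraries A or B (limma adjusted p = 0.0721 to 0.0863), nor Ndn without stressed libraries A or B (limma adjusted p = 0.074 to 0.104). Egr1 was not called without stressed libraries A or B or normal libraries A or C (limma adjusted p = 0.0536 to 0.131). Cdkn1b was named after its values were seen.

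Transcription factors and receptors of HSC identity changed in both directions: 7 of 33 fell and 3 rose, with a median of -0.067. Hlf, a PAR bZIP factor of long-term HSCs, was measured at 292 and 286 CPM in the stressed libraries and 400.3, 461 and 463 CPM in the normal libraries (log2 difference -0.61, SE 0.07, limma adjusted p = 0.000423). It was lower in both stressed libraries, with no overlap. Fgd5, a guanine exchange factor used as an HSC reporter gene, had levels of 53.8 and 51.1 CPM against 109, 88.4 and 121 CPM (stressed against normal, log2 difference -1.01, SE 0.18, limma adjusted p = 0.00791). Procr, the protein C receptor used to sort HSCs, had levels of 58.1 and 67.7 CPM against 85.3, 107 and 112 CPM (stressed against normal, log2 difference -0.68, SE 0.13, limma adjusted p = 0.0112). Erg, an ETS factor required for HSC maintenance, had levels of 69.3 and 64.6 CPM against 102, 91.4 and 101 CPM (stressed against normal, log2 difference -0.55, SE 0.09, limma adjusted p = 0.00685). In none of these 3 genes did the stressed and normal levels overlap. Prdm16, a zinc-finger regulator of HSCs, also fell (-0.58, SE 0.12, adjusted p = 0.0167 by limma), as did Mycn, described with the cell-cycle regulators.

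The 3 members that rose were Itga2b, Vwf and Cd48. Itga2b, integrin alpha IIb, shared by megakaryocytes and platelet-biased HSCs, was measured at 662 and 637 CPM in the stressed libraries and 382, 432 and 413 CPM in the normal libraries (log2 difference 0.67, SE 0.06, limma adjusted p = 0.000181). Vwf, von Willebrand factor, which marks platelet-biased HSCs, had levels of 261 and 289.9 CPM against 196, 197 and 186 CPM (stressed against normal, log2 difference 0.51, SE 0.08, limma adjusted p = 0.00424). Cd48, a SLAM receptor that is low on long-term HSCs, had levels of 20.0 and 20.1 CPM against 10.1, 10.3 and 12.3 CPM (stressed against normal, log2 difference 0.89, SE 0.18, limma adjusted p = 0.018). All 3 were higher in the 2 stressed libraries than in every normal library. Kit, the stem cell factor receptor, stood at -0.07 (SE 0.05, limma adjusted p = 0.533) and Slamf1, the SLAM receptor CD150, at 0.23 (SE 0.15, limma adjusted p = 0.449). In the HSC identity list the 7 falls became 3 without stressed library A or B, and the 3 rises became 1 without stressed library B. Vwf was not called without stressed library B (limma adjusted p = 0.0687), nor Erg without stressed library B (limma adjusted p = 0.0754). Fgd5 was not called without stressed libraries A or B (limma adjusted p = 0.0604 to 0.0826), nor Procr without stressed library A (limma adjusted p = 0.119). Prdm16 was not called without stressed libraries A or B or normal library C (limma adjusted p = 0.0514 to 0.145), nor Cd48 without stressed libraries A or B (limma adjusted p = 0.109 to 0.12). Members beyond Itga2b, Hlf and Vwf were named after their values were seen.

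Imprinted genes of the growth network fell in 5 of 10 tested members and rose in none, with a median of -0.94. Peg3, a paternally expressed zinc-finger gene, had 0 reads in both stressed libraries and 3.28, 2.96 and 2.96 CPM in the normal libraries (limma adjusted p = 0.00151). Against a floor of 3 reads per library it was at least 26.0-fold lower in stressed HSCs. Meg3, a maternally expressed long noncoding RNA, was at 0.0376 and 0.295 CPM against 10.2, 9.33 and 9.99 CPM (limma adjusted p = 0.00264), so that it was near absent from both stressed libraries and present in all 3 normal ones. Grb10, an adaptor that restrains growth factor receptors, was measured at 143 and 144 CPM in the stressed libraries and 205, 199 and 229 CPM in the normal libraries (log2 difference -0.55, SE 0.08, limma adjusted p = 0.00329). Ndn and Cdkn1c, given above, were the other falls. In the WT-labelled libraries the median of the list was -2.80. The 5 falls became 4 without stressed library A and 3 without stressed library B. Cdkn1c was not called without stressed library B (limma adjusted p = 0.127), nor Ndn without stressed libraries A or B (limma adjusted p = 0.074 to 0.104). With Peg3 at its bound of 3 reads the median of the list was also -0.94, and the size of change of genes near the lowest measurable value depends on that value.

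Megakaryocyte and platelet genes mostly rose: 14 of 27 were called higher and 3 lower, with a median of 0.51. Pf4, the platelet chemokine CXCL4, was measured at 350.2 and 357 CPM in the stressed libraries and 138, 138 and 152 CPM in the normal libraries (log2 difference 1.31, SE 0.07, limma adjusted p = 2.3e-06). Gp1bb, a subunit of the von Willebrand factor receptor, was measured at 52.9 and 40.7 CPM in the stressed libraries and 17, 21.2 and 21.7 CPM in the normal libraries (log2 difference 1.23, SE 0.17, limma adjusted p = 0.00192). Selp, P-selectin of platelet alpha granules, was measured at 97.4 and 89.1 CPM in the stressed libraries and 30.5, 21.1 and 36.9 CPM in the normal libraries (log2 difference 1.70, SE 0.25, limma adjusted p = 0.00248). All 3 were over 2-fold higher in the stressed libraries on average, with no overlap. F2r, the thrombin receptor PAR1, had levels of 407 and 405 CPM against 279, 251 and 273 CPM (stressed against normal, log2 difference 0.60, SE 0.06, limma adjusted p = 0.000181). Slc14a1, a urea transporter expressed in platelet-primed HSCs, had levels of 357 and 359.9 CPM against 243, 235 and 223 CPM (stressed against normal, log2 difference 0.62, SE 0.06, limma adjusted p = 0.000153). Gata1, the transcription factor of megakaryocyte and erythroid cells, had levels of 109.6 and 129 CPM against 89.2, 76.4 and 74.3 CPM (stressed against normal, log2 difference 0.58, SE 0.12, limma adjusted p = 0.0162). Further members called higher by limma were Gp5 (0.61, SE 0.14, adjusted p = 0.0296), Gp1ba (0.89, SE 0.22, adjusted p = 0.0422), F2rl2 (0.94, SE 0.16, adjusted p = 0.00762) and Cd9 (0.47, SE 0.08, adjusted p = 0.00793). The 3 falls included Mmrn1 (-0.48, SE 0.06, adjusted p = 0.00146), which binds coagulation factor V, and Thbs1 (-1.00, SE 0.23, adjusted p = 0.0302), thrombospondin. Pf4, Itga2b and Gp1ba, the megakaryocyte markers checked, summed to 1052 and 1023 CPM in the stressed libraries and 540 to 586 CPM in the normal ones; whether a change in cell makeup underlies the list was not tested. The 14 rises became 8 without stressed library A, 7 without stressed library B and 9 without normal library C. Gata1 was not called without stressed library B or normal library C (limma adjusted p = 0.0539 to 0.167), nor Gp5 without stressed libraries A or B or normal libraries A or C (limma adjusted p = 0.074 to 0.227). Gp1ba was not called without stressed libraries A or B, normal libraries A, B or C or WT-labelled normal libraries A, B or C (limma adjusted p = 0.0507 to 0.294), nor F2rl2 without stressed libraries A or B (limma adjusted p = 0.0542 to 0.081). Cd9 was not called without stressed library A (limma adjusted p = 0.0904), nor Thbs1 without stressed libraries A or B or normal libraries A or B (limma adjusted p = 0.0558 to 0.176). Gp1bb, Mmrn1, Gp5, Gp1ba, F2rl2 and Thbs1 were named after their values were seen.

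Of 28 genes of niche adhesion and homing, 4 rose and 3 fell, with a median of 0.095. Cd82, a tetraspanin linked to HSC dormancy, was measured at 31.3 and 38.9 CPM in the stressed libraries and 67.8, 59.7 and 70.8 CPM in the normal libraries (log2 difference -0.92, SE 0.13, limma adjusted p = 0.00176). Cd82 was lower in both stressed libraries, without overlap, and Selp and Cd9, given above, were among the rises. Itga6, integrin alpha 6, had levels of 262 and 277 CPM against 207, 193 and 195 CPM (stressed against normal, log2 difference 0.44, SE 0.08, limma adjusted p = 0.0122). Itga9, integrin alpha 9, had levels of 8.21 and 4.52 CPM against 16.1, 14.7 and 11.2 CPM (stressed against normal, log2 difference -1.19, SE 0.27, limma adjusted p = 0.0294). Jam3, a junctional adhesion molecule, had levels of 15.4 and 9.25 CPM against 23.2, 18.5 and 28.4 CPM (stressed against normal, log2 difference -0.95, SE 0.24, limma adjusted p = 0.049). Itga6 rose, and Itga9 and Jam3 fell; these 3 were named after their values were seen. The 4 rises became 2 without stressed library A, and the 3 falls became 1 without stressed library B or WT-labelled normal library C. Cd9 was not called without stressed library A (limma adjusted p = 0.0904), nor Itga6 without stressed libraries A or B (limma adjusted p = 0.0634 to 0.121). Itga9 was not called without stressed library B, normal libraries A or B or WT-labelled normal library C (limma adjusted p = 0.0511 to 0.238), nor Jam3 without stressed library B, normal libraries A or C, WT-labelled stressed libraries A or B or WT-labelled normal libraries A, B or C (limma adjusted p = 0.0633 to 0.362).

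Erythroid, myeloid and lymphoid lists held 2 to 4 calls each. The share called was 9.09% of the erythroid, 20.0% of the granulocyte and monocyte and 14.3% of the lymphoid priming list, against 4.87% of all genes tested. Of 22 erythroid genes 1 rose (Gata1) and 1 fell, with a median of -0.14. Car1, carbonic anhydrase 1 of early erythroid progenitors, was measured at 86.6 and 80.7 CPM in the stressed libraries and 144, 153 and 138 CPM in the normal libraries (log2 difference -0.79, SE 0.10, limma adjusted p = 0.00114). Without normal library A Nfe2 was called lower too (adjusted p = 0.0494), and without normal library B Car2 (adjusted p = 0.0212); both were named after their values were seen. Of 20 granulocyte and monocyte genes 1 rose and 3 fell, with a median of -0.23. S100a9, a subunit of calprotectin, had levels of 0.336 and 0.45 CPM against 4.68, 3.59 and 2.89 CPM (stressed against normal, log2 difference -3.23, SE 0.56, limma adjusted p = 0.00735). Its partner S100a8 had 0.89 and 0.102 CPM against 6.9, 3.4 and 4.18 CPM (limma adjusted p = 0.0308), low levels that were lower in both stressed libraries. Csf2ra, the GM-CSF receptor alpha chain, had levels of 39.6 and 34 CPM against 48.3, 52.1 and 55.1 CPM (stressed against normal, log2 difference -0.50, SE 0.12, limma adjusted p = 0.04). Plac8, a small cysteine-rich protein of myeloid and lymphoid progenitors, had levels of 142 and 142 CPM against 100.5, 113 and 113 CPM (stressed against normal, log2 difference 0.38, SE 0.10, limma adjusted p = 0.0492). Csf2ra fell and Plac8 rose, each by 0.50 or less on the log2 scale. Mmp9, a neutrophil gelatinase below the filter, had a log2 CPM of -0.72 and -0.63 in the stressed libraries and 0 reads in the 8 other libraries. The 3 falls became 1 without normal library B or C or stressed library A or B. Gata1 was not called without stressed library B or normal library C (limma adjusted p = 0.0539 to 0.167), nor S100a9 without stressed library A (limma adjusted p = 0.0528). S100a8 was not called without stressed library B or normal libraries A, B or C (limma adjusted p = 0.0585 to 0.199), nor Csf2ra without stressed libraries A or B, normal libraries B or C, WT-labelled stressed libraries A or B or WT-labelled normal libraries A, B or C (limma adjusted p = 0.0516 to 0.265). Plac8 was not called without stressed libraries A or B, normal libraries A, B or C, WT-labelled stressed libraries A or B or WT-labelled normal libraries A, B or C (limma adjusted p = 0.0553 to 0.21).

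In lymphoid priming, 2 of 14 genes rose, among them Mef2c, and the median was 0.094. Mef2c, a MADS-box factor of lymphoid and megakaryocyte priming, was measured at 410.1 and 397 CPM in the stressed libraries and 296, 324 and 279 CPM in the normal libraries (log2 difference 0.43, SE 0.07, limma adjusted p = 0.00571). The call was lost in limma without stressed library A (adjusted p = 0.066). Among T and NK cell markers 1 of 4 tested rose. Nkg7, a granule membrane protein of cytotoxic cells, was measured at 96 and 95.6 CPM in the stressed libraries and 65.4, 60.3 and 58.8 CPM in the normal libraries (log2 difference 0.64, SE 0.10, limma adjusted p = 0.00381). It was higher in both stressed libraries. Of 15 macrophage and dendritic cell markers 1 rose and 1 fell, with a median of 0.30. H2-Ab1, an MHC class II beta chain, had levels of 76.3 and 73.7 CPM against 48.3, 53.9 and 54.5 CPM (stressed against normal, log2 difference 0.52, SE 0.10, limma adjusted p = 0.0138). The other call was that of Adgre1, the F4/80 antigen, with 1.3, 0.356 and 1.35 CPM in the normal libraries, 0.0376 CPM in stressed library A and 0 reads in stressed library B (limma adjusted p = 0.0488). H2-Ab1 was not called without stressed libraries A or B (limma adjusted p = 0.0796 to 0.1), nor Adgre1 without stressed libraries A or B, normal libraries A or C, WT-labelled stressed libraries A or B or WT-labelled normal libraries B or C (limma adjusted p = 0.0537 to 0.21). No mast cell or basophil marker was called (6 tested, median 0.38); Il4 stood at -1.01 (SE 0.32, limma adjusted p = 0.114) and Cpa3, a mast cell protease, at 0.79 (SE 0.27, limma adjusted p = 0.139). Of the 4 mast cell markers below the filter, the proteases Cma1 (log2 CPM 0.20 and -0.16), Tpsb2 (0.03 and -0.48) and Mcpt4 (-1.58 and -0.91) had reads in both stressed libraries and 0 reads in the 8 other libraries of the series. Ms4a2 had reads in stressed library A and in 2 normal libraries. The 10 markers in the table, which include Kit and Gata2 of HSCs, summed to 1864 and 1884 CPM in stressed and 1870 to 2035 CPM in normal libraries. Likewise no stromal or endothelial marker was called (8 tested, median -0.43); Bgn stood at -0.77 (SE 0.22, limma adjusted p = 0.0753) and Col1a2, a collagen chain, at -1.16 (SE 0.38, limma adjusted p = 0.125). Bgn was called lower without WT-labelled stressed library A or B (adjusted p = 0.0468 and 0.0447).

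Immunoglobulin transcripts were high in both stressed libraries. Summed over the 24 immunoglobulin genes and segments in the table, a list added after the values were seen, the level was 461 and 497 CPM in the KO-labelled stressed libraries, 6.46 to 7.58 CPM in the KO-labelled normal libraries and 4.10 to 6.99 CPM in the 5 WT-labelled libraries. Of the 24, 9 passed the filter and 15 did not. Of these 9, 7 were called higher, but 6 had 0 reads in every normal library and passed only through the stressed libraries, so the count is not read as a result about the list. Of 10 B and plasma cell markers that passed, 2 of them in the same way, 4 rose. Igkc, the kappa light chain constant region, was measured at 129.7 and 136 CPM in the stressed libraries and 0.927, 0.456 and 1.5 CPM in the normal libraries (log2 difference 7.27, SE 1.08, limma adjusted p = 0.00282). Ighg2b, the constant region of IgG2b (chr12:113302965-113307933, minus strand), had 109 and 128 CPM in the stressed libraries and 0 reads in every other library, which is at least 1032-fold higher than the floor of 3 reads per library (limma adjusted p = 0.00488). Igha, the IgA constant region, had 68.1 and 70.0 CPM and 0 reads in the normal libraries (limma adjusted p = 0.00961). Jchain, the joining chain of secreted IgA and IgM, had levels of 26.7 and 27.7 CPM against 0.77, 0.687 and 1.02 CPM (stressed against normal, log2 difference 5.06, SE 0.60, limma adjusted p = 0.000758). The levels of these 4 genes in stressed libraries A and B were within 1.5-fold of each other.

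Among the variable segments that passed the filter, Igkv1-110 had 57.8 and 58.9 CPM, Igkv8-30 29.9 and 31.4 CPM, Ighv1-63 29.7 and 33.4 CPM and Ighv1-22 17.7 and 22.4 CPM, and each was called by limma (adjusted p = 0.0114, 0.00827, 0.0265 and 0.0437). Ighm, with 5.55 and 6.5 CPM, and Iglv1, with 6.57 and 6.65 CPM, were not called; Ighm had 4.12, 4.47 and 2.46 CPM in the normal libraries and Iglv1 0 reads. A segment with 0 reads in the normal libraries could pass only with reads in both stressed libraries, so the filter itself chose segments that the pair share. Below the filter, Ighv8-12 had a log2 CPM of -1.42 in stressed library A and 0 reads in B, and Iglv3 had 0 reads in A and -0.91 in B. Cd79a, a B-cell receptor chain, had 0.409 and 0.533 CPM in the stressed libraries, and Mzb1 had 0.717 CPM in A and 0 reads in B. Sdc1, the plasma cell marker syndecan 1, had 10.5 and 12.3 CPM against 5.47 to 7.42 CPM in the normal libraries. Markers of B and plasma cells summed to 168 and 177 CPM in stressed and 7.09 to 12.9 CPM in normal libraries, and 3 mast cell proteases, given above, also had reads in both stressed libraries and none in the other 8. The part of other cells in these values was not tested. Without stressed library A or B 1 of the 7 calls remained, that of Igkc, and Jchain on the marker list held as well. Ighg2b was not called without stressed libraries A or B (limma adjusted p = 0.0904 to 0.11), nor Igha without stressed libraries A or B (limma adjusted p = 0.125 to 0.14). Igkv8-30 was not called without stressed libraries A or B (limma adjusted p = 0.0944 to 0.109), nor Igkv1-110 without stressed libraries A or B (limma adjusted p = 0.13 to 0.142). Ighv1-63 was not called without stressed libraries A or B (limma adjusted p = 0.183 to 0.21), nor Ighv1-22 without stressed libraries A or B, normal libraries B or C or WT-labelled normal libraries A, B or C (limma adjusted p = 0.0536 to 0.265).

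**Figure D3:**
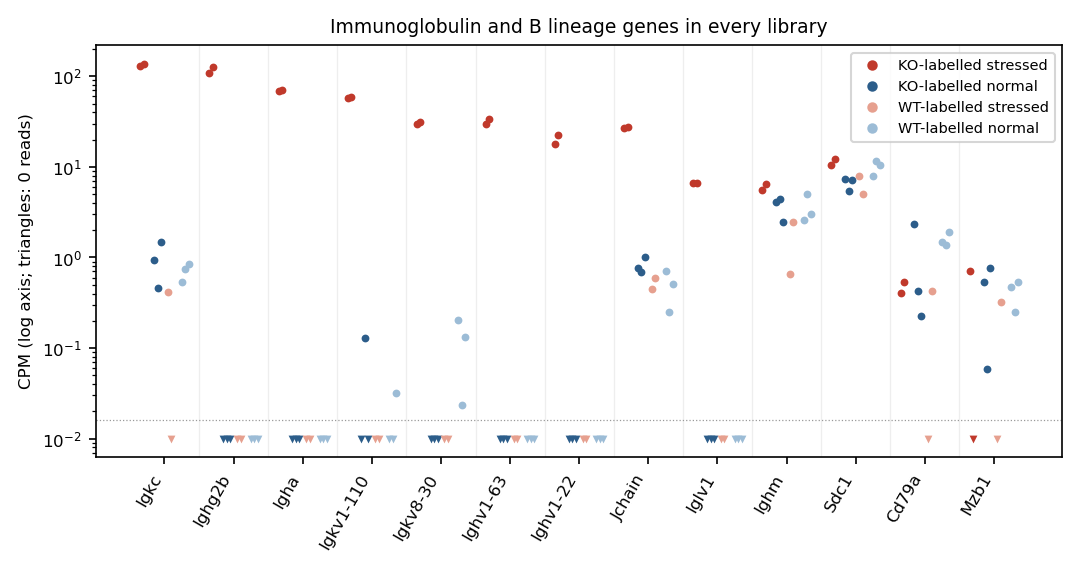
CPM (log axis) of immunoglobulin genes and B and plasma cell markers, 1 point per library in the 4 groups; triangles mark 0 reads. The KO-labelled stressed points of Igkc, Ighg2b, Igha, Jchain and the variable segments stand above all other libraries, while Mzb1 is at 0 reads in stressed library B.

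Transcripts of mitochondrial DNA fell: 10 of 14 were called lower in stressed HSCs and none higher, with a median of -1.47. Their share of all CPM was 0.744% and 0.751% in the stressed libraries and 1.68%, 1.71% and 1.79% in the normal libraries. mt-Co1, the catalytic subunit of cytochrome c oxidase, was measured at 971 and 1003 CPM in the stressed libraries and 3687, 3687 and 3687 CPM in the normal libraries (log2 difference -1.90, SE 0.03, limma adjusted p = 3.46e-11). mt-Cytb, cytochrome b of complex III, was measured at 1417 and 1417 CPM in the stressed libraries and 2848, 3112 and 3112 CPM in the normal libraries (log2 difference -1.09, SE 0.04, limma adjusted p = 2.64e-08). Both were lower by over 2-fold in the 2 stressed libraries. mt-Nd5, a complex I subunit, was measured at 449 and 439 CPM in the stressed libraries and 1161, 1226 and 1312 CPM in the normal libraries (log2 difference -1.47, SE 0.05, limma adjusted p = 4.92e-08). mt-Nd4, another complex I subunit, was measured at 194 and 203 CPM in the stressed libraries and 520.2, 580.5 and 592 CPM in the normal libraries (log2 difference -1.51, SE 0.07, limma adjusted p = 4.87e-07). mt-Rnr1, the small mitochondrial ribosomal RNA, was measured at 563 and 586 CPM in the stressed libraries and 1559, 1913 and 1789.6 CPM in the normal libraries (log2 difference -1.61, SE 0.11, limma adjusted p = 1.2e-05). The other calls were mt-Nd1 (-1.32, SE 0.09, adjusted p = 1.75e-05), mt-Nd2 (-1.51, SE 0.11, adjusted p = 1.97e-05), mt-Nd6 (-1.47, SE 0.13, adjusted p = 0.000132), mt-Co3 (-1.63, SE 0.11, adjusted p = 1.75e-05) and mt-Rnr2 (-0.70, SE 0.09, adjusted p = 0.000909), all by limma and, with mt-Rnr1, named after their values were seen. No call was lost when any single library was left out. The 4 members not called were mt-Co2, mt-Atp6, mt-Atp8 and mt-Nd4l; mt-Co2 stood at -1.26 (SE 0.36, limma adjusted p = 0.0784), mt-Atp6 at -0.97 (SE 0.32, limma adjusted p = 0.12), mt-Nd4l at -1.50 (SE 0.67, limma adjusted p = 0.261) and mt-Atp8 at 2.58 (SE 0.81, limma adjusted p = 0.105). Without normal library A mt-Co2 (-1.67, adjusted p = 0.00513) and mt-Atp6 (-1.26, adjusted p = 0.0352) were called lower by limma as well. Near-identical nuclear copies can share reads with these genes, and the deposited values tie the most abundant genes across libraries: mt-Co1 had the same value in all 3 normal libraries, so its standard error understates the spread.

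**Figure D4:**
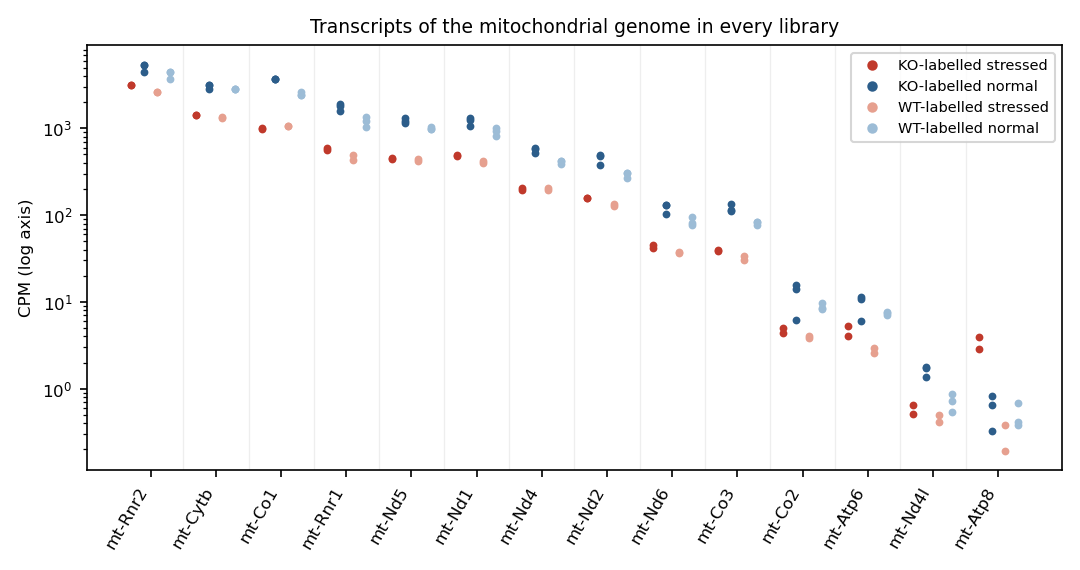
CPM (log axis) of the 14 mitochondrial DNA transcripts tested, 1 point per library in the 4 groups. In the 10 called transcripts both KO-labelled stressed points lie below all 3 normal points.

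Among nuclear genes of the respiratory chain, 1 of 37 complex I subunits (2.7%, median 0.011) and 1 of 40 subunits of complexes II to V (2.5%, median -0.023) rose. The share called over all genes tested was 4.87%. Ndufv1, the NADH-binding subunit of complex I, had levels of 176 and 166 CPM against 141, 134 and 124 CPM (stressed against normal, log2 difference 0.37, SE 0.08, limma adjusted p = 0.0265). Atp5b, the catalytic subunit of ATP synthase, had levels of 1679 and 1679 CPM against 1372, 1337 and 1337 CPM (stressed against normal, log2 difference 0.32, SE 0.05, limma adjusted p = 0.00655). Its equal values are ties made by the authors' scaling, so its standard error is too small. Of 28 genes of mitochondrial biogenesis and dynamics none was called (median -0.014); Tomm40, the import pore, stood at 0.34 (SE 0.09, limma adjusted p = 0.0595) and Pink1, a mitophagy kinase, at -0.23 (SE 0.07, limma adjusted p = 0.0723). Ndufv1 was not called without stressed libraries A or B or normal library C (limma adjusted p = 0.0752 to 0.177), nor Atp5b without stressed libraries A or B (limma adjusted p = 0.0646 to 0.0698).

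In glycolysis and the TCA cycle 3 of 31 genes rose and 2 fell, with a median of -0.0035. Gapdh, a glycolytic dehydrogenase, was measured at 1226 and 1209 CPM in the stressed libraries and 994, 959.5 and 946 CPM in the normal libraries (log2 difference 0.33, SE 0.04, limma adjusted p = 0.00072). Ldhb, the lactate dehydrogenase B subunit, had levels of 93.4 and 98.1 CPM against 178, 133 and 150.5 CPM (stressed against normal, log2 difference -0.67, SE 0.12, limma adjusted p = 0.00961). Ldha, the lactate dehydrogenase A subunit, had levels of 1392 and 1337 CPM against 1226, 1161 and 1195 CPM (stressed against normal, log2 difference 0.19, SE 0.04, limma adjusted p = 0.0181). The lactate dehydrogenase subunits thus moved in opposite directions, Ldha up and Ldhb down. Idh3a (0.38, SE 0.09, adjusted p = 0.0275) rose and Slc2a3 (-0.32, SE 0.08, adjusted p = 0.0473), a glucose transporter named after its values were seen, fell in the limma fit. The 3 rises became 1 without normal library C or stressed library A or B. Ldhb was not called without stressed libraries A or B (limma adjusted p = 0.0687 to 0.089), nor Ldha without stressed libraries A or B or normal library C (limma adjusted p = 0.0505 to 0.177). Idh3a was not called without stressed libraries A or B or normal libraries B or C (limma adjusted p = 0.0654 to 0.208), nor Slc2a3 without stressed libraries A or B, normal libraries A or C, WT-labelled stressed libraries A or B or WT-labelled normal libraries A, B or C (limma adjusted p = 0.0549 to 0.201). Of 20 genes of fatty acid oxidation 1 rose (median 0.12). Cpt1a, the carnitine transferase that admits fatty acids to mitochondria, was measured at 294 and 272 CPM in the stressed libraries and 202, 203 and 187 CPM in the normal libraries (log2 difference 0.52, SE 0.07, limma adjusted p = 0.00176). Both stressed values of Cpt1a were above all normal values.

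Of 24 cholesterol synthesis genes 6 were called lower and none higher, with a median of -0.45. Srebf2, the transcription factor of the pathway, was measured at 297 and 305 CPM in the stressed libraries and 367, 383 and 415 CPM in the normal libraries (log2 difference -0.37, SE 0.06, limma adjusted p = 0.00608). Sqle, squalene epoxidase, was measured at 92.9 and 101 CPM in the stressed libraries and 157, 129.7 and 163 CPM in the normal libraries (log2 difference -0.62, SE 0.11, limma adjusted p = 0.00684). Both were lower in both stressed libraries, with no overlap. Msmo1 (-0.68, SE 0.12, adjusted p = 0.0073), Cyp51 (-0.51, SE 0.13, adjusted p = 0.0437) and Insig1 (-0.64, SE 0.16, adjusted p = 0.0479), which retains the SREBP complex, also fell by limma, the last 2 named after their values were seen. The 6 falls became 1 without stressed library A. Srebf2 was not called without stressed library A (limma adjusted p = 0.0661), nor Sqle without stressed library A (limma adjusted p = 0.0774). Msmo1 was not called without stressed library A (limma adjusted p = 0.0791), nor Cyp51 without stressed libraries A or B, normal libraries A or B or WT-labelled normal libraries A, B or C (limma adjusted p = 0.0502 to 0.227). Insig1 was not called without stressed libraries A or B, normal libraries A, B or C, WT-labelled stressed libraries A or B or WT-labelled normal library B (limma adjusted p = 0.0573 to 0.312).

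Cytosolic ribosomal protein genes fell in 14 of 54 members and rose in none, by small amounts, with a median of -0.16. Rps27, a small-subunit protein, was measured at 254 and 282 CPM in the stressed libraries and 357, 363 and 368 CPM in the normal libraries (log2 difference -0.44, SE 0.07, limma adjusted p = 0.00476). Rpl9, a large-subunit protein, had levels of 463 and 463 CPM against 586, 545 and 559 CPM (stressed against normal, log2 difference -0.28, SE 0.05, limma adjusted p = 0.00572). Rpl17, another large-subunit protein, had levels of 248 and 242 CPM against 317, 308 and 301 CPM (stressed against normal, log2 difference -0.33, SE 0.06, limma adjusted p = 0.00937). Rps23, a protein of the decoding centre, had levels of 416 and 430.3 CPM against 549, 490.3 and 509.6 CPM (stressed against normal, log2 difference -0.28, SE 0.06, limma adjusted p = 0.0145). Each was lower in the 2 stressed libraries than in any normal library. In WT-labelled libraries the median of the list was 0.14, and 3 members rose. The 14 falls became 0 without stressed library A, 1 without stressed library B and 7 without normal library C. Rps27 was not called without stressed library A (limma adjusted p = 0.066), nor Rpl9 without stressed libraries A or B (limma adjusted p = 0.056 to 0.0564). Rpl17 was not called without stressed libraries A or B (limma adjusted p = 0.0604 to 0.089), nor Rps23 without stressed libraries A or B (limma adjusted p = 0.0796 to 0.125).

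Of 32 ribosome biogenesis genes 1 rose (3.12%, against 4.87% called over all genes tested, median 0.036). Ncl, the nucleolar protein nucleolin, was measured at 1372 and 1354 CPM in the stressed libraries and 1058, 1125 and 1100.3 CPM in the normal libraries (log2 difference 0.32, SE 0.04, limma adjusted p = 0.000654). Of 26 translation factors 2 rose and 2 fell (median 0.015). Eef1a1, the factor that brings aminoacyl-tRNA to the ribosome, was measured at 5375 and 5375 CPM in the stressed libraries and 3112, 2848 and 2443 CPM in the normal libraries (log2 difference 0.95, SE 0.07, limma adjusted p = 2.34e-05). Its equal value in both stressed libraries is a tie made by the authors' scaling, so the standard error is too small. Eif5a, the hypusinated translation factor, had levels of 1444 and 1444 CPM against 1258, 1258 and 1354 CPM (stressed against normal, log2 difference 0.16, SE 0.04, limma adjusted p = 0.0356). The equal values of Eif5a are ties as well, so its standard error is too small. Eif1, a start codon selection factor, had levels of 479 and 462 CPM against 562, 567 and 586 CPM (stressed against normal, log2 difference -0.28, SE 0.04, limma adjusted p = 0.00353). Eif4a2, an RNA helicase of initiation, had levels of 253 and 262 CPM against 334, 302 and 311 CPM (stressed against normal, log2 difference -0.30, SE 0.07, limma adjusted p = 0.0359). Eif5a rose, and Eif1 and Eif4a2 fell. Eif1 was not called without stressed library B (limma adjusted p = 0.0546), nor Eif5a without stressed libraries A or B, normal libraries A or B or WT-labelled normal library C (limma adjusted p = 0.0598 to 0.191). Eif4a2 was not called without stressed libraries A or B, normal libraries A or C or WT-labelled normal libraries A, B or C (limma adjusted p = 0.0558 to 0.203). Of 31 proteasome genes 1 rose (3.23%, median 0.011). It was Psmd1, a regulatory-particle subunit, at 329 and 314 CPM against 263, 266 and 267 CPM (log2 difference 0.28, SE 0.06, limma adjusted p = 0.0174). Psmd1 was not called without stressed libraries A or B (limma adjusted p = 0.073 to 0.147).

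Splicing factors rose in 6 of 40 members and fell in 2, with a median of 0.12. Ddx17, an RNA helicase, was measured at 73.8 and 74.8 CPM in the stressed libraries and 146, 128 and 144 CPM in the normal libraries (log2 difference -0.90, SE 0.09, limma adjusted p = 0.000219). Hnrnpa2b1, an hnRNP, was measured at 1789.6 and 1721 CPM in the stressed libraries and 1312, 1444 and 1372 CPM in the normal libraries (log2 difference 0.35, SE 0.04, limma adjusted p = 0.00051). Hnrnpd, the AU-rich element binding hnRNP AUF1, was measured at 311 and 326 CPM in the stressed libraries and 214, 237 and 239 CPM in the normal libraries (log2 difference 0.47, SE 0.07, limma adjusted p = 0.0025). Ddx17 was lower and both hnRNP genes higher in the stressed libraries, without overlap. Hnrnpu, Hnrnpa1 (0.41, SE 0.07, adjusted p = 0.00532), Hnrnpk (0.22, SE 0.04, adjusted p = 0.0159) and Hnrnpab (0.22, SE 0.05, adjusted p = 0.0359) also rose and Rbm39 (-0.24, SE 0.04, adjusted p = 0.00829) fell in the limma fit; of these, Hnrnpa1, Hnrnpk, Hnrnpab and Rbm39 were named after their values were seen. The 6 rises became 3, and the 2 falls 1, without stressed library A or B. Hnrnpa1 was not called without stressed libraries A or B (limma adjusted p = 0.0526 to 0.0574), nor Hnrnpk without stressed libraries A or B (limma adjusted p = 0.117 to 0.121). Hnrnpab was not called without stressed libraries A or B, normal libraries A or B or WT-labelled normal libraries A or C (limma adjusted p = 0.0518 to 0.249), nor Rbm39 without stressed libraries A or B (limma adjusted p = 0.0687 to 0.0776). Of 15 small nucleolar RNA host genes 2 fell, Meg3 and Rian (median -0.092, the same with Rian at its bound). Rian, which lies in the same imprinted region as Meg3, had 0 reads in both stressed libraries and 1.05, 1.32 and 0.6 CPM in the normal libraries (limma adjusted p = 0.0425). Rian was not called without stressed libraries A or B, normal libraries A, B or C or WT-labelled normal libraries A, B or C (limma adjusted p = 0.0774 to 0.122). Of 28 genes of DNA methylation and Polycomb 1 rose, Uhrf1 (0.37, SE 0.09, adjusted p = 0.0482), and 1 fell, Kmt2a (-0.38, SE 0.07, adjusted p = 0.00757), a histone methyltransferase (median 0.042). Uhrf1 was not called without stressed libraries A or B, normal libraries B or C, WT-labelled stressed libraries A or B or WT-labelled normal libraries B or C (limma adjusted p = 0.0611 to 0.248), nor Kmt2a without stressed library B (limma adjusted p = 0.0945). Ezh1 of that list, named after its values were seen, was called lower without normal library C (adjusted p = 0.0484).

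Autophagy and lysosome genes fell in 4 of 34 members and rose in none, with a median of -0.15. Psap, the precursor of the saposins, activators of lysosomal lipid breakdown, was measured at 328 and 354 CPM in the stressed libraries and 492, 474 and 443 CPM in the normal libraries (log2 difference -0.46, SE 0.06, limma adjusted p = 0.0016). Gabarapl1, an ATG8 family member, had levels of 169 and 160.1 CPM against 215, 202 and 221 CPM (stressed against normal, log2 difference -0.37, SE 0.07, limma adjusted p = 0.0117). Ctsb, the protease cathepsin B, had levels of 231 and 233 CPM against 299, 289.9 and 276 CPM (stressed against normal, log2 difference -0.31, SE 0.07, limma adjusted p = 0.0195). Gabarap, another ATG8 family member, had levels of 117 and 114 CPM against 161, 137 and 163 CPM (stressed against normal, log2 difference -0.41, SE 0.10, limma adjusted p = 0.0359). All 4 were lower in both stressed libraries, and the 4 falls became 1 without stressed library A or B. Gabarapl1 was not called without stressed libraries A or B (limma adjusted p = 0.0544 to 0.112), nor Ctsb without stressed libraries A or B (limma adjusted p = 0.113 to 0.125). Gabarap was not called without stressed libraries A or B, normal libraries A or C or WT-labelled normal libraries A, B or C (limma adjusted p = 0.0559 to 0.19).

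Lists of classical stress responses held calls in both directions, except the heat shock list (lower only) and the MHC class I list (higher only). The share called was 22.2% of the immediate early genes and 18.5% of the ATF4 list, above the 4.87% of all genes tested, and 7.5% to 9.09% of the heat shock, antioxidant, p53, interferon and MHC class I lists. Of 18 immediate early genes 2 rose (Jun and Fos) and 2 fell (Egr1 and Junb), with a median of 0.17. Jun, an AP-1 subunit, was measured at 199 and 199 CPM in the stressed libraries and 112, 82.8 and 99.7 CPM in the normal libraries (log2 difference 1.03, SE 0.13, limma adjusted p = 0.000845). Junb, another AP-1 subunit, had levels of 39.5 and 46.2 CPM against 54.1, 61.4 and 66.4 CPM (stressed against normal, log2 difference -0.50, SE 0.12, limma adjusted p = 0.0422). Jun was higher, and Junb lower, in both stressed libraries than in any normal library. Fos, the AP-1 partner of JUN, had levels of 15.3 and 14.8 CPM against 9.62, 6.04 and 8.94 CPM (stressed against normal, log2 difference 0.90, SE 0.22, limma adjusted p = 0.0427). Junb was not called without stressed libraries A or B, normal libraries B or C, WT-labelled stressed libraries A or B or WT-labelled normal libraries A, B or C (limma adjusted p = 0.0545 to 0.266), nor Fos without stressed libraries A or B, normal libraries B or C or WT-labelled normal libraries A, B or C (limma adjusted p = 0.0645 to 0.199). Egr1 was not called without stressed libraries A or B or normal libraries A or C (limma adjusted p = 0.0536 to 0.131). Of 24 heat shock proteins and cochaperones 2 fell and none rose (median -0.082): Hsph1 (-0.76, SE 0.13, adjusted p = 0.00685), an HSP110 chaperone, and Dnaja1 (-0.42, SE 0.07, adjusted p = 0.00691), an HSP40 cochaperone. Hsph1 was not called without stressed library A (limma adjusted p = 0.0816), nor Dnaja1 without stressed libraries A or B (limma adjusted p = 0.0566 to 0.0726).

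Of 27 genes of ATF4 and the unfolded protein response 3 rose and 2 fell, with a median of -0.05, the same with Chac1 at its bound. Trib3, a pseudokinase induced by ATF4 and CHOP, was measured at 20.0 and 17 CPM in the stressed libraries and 42.7, 43.9 and 42.9 CPM in the normal libraries (log2 difference -1.23, SE 0.16, limma adjusted p = 0.00104). Slc7a5, the large neutral amino acid transporter LAT1, was measured at 142 and 152 CPM in the stressed libraries and 84.8, 80.5 and 92.5 CPM in the normal libraries (log2 difference 0.77, SE 0.10, limma adjusted p = 0.00141). Trib3 was lower and Slc7a5 higher in both stressed libraries, and both are known ATF4 targets. Chac1, a glutathione-degrading enzyme, had 0 reads in both stressed libraries and 1.05, 1.39 and 1.74 CPM in the normal ones, at least 11.6-fold lower (limma adjusted p = 0.019). Psat1 (0.54, SE 0.13, adjusted p = 0.0431), a serine synthesis enzyme, and Slc3a2 (0.34, SE 0.09, adjusted p = 0.0482), the partner chain of LAT1 named after its values were seen, rose. Chac1 was not called without normal libraries B or C or WT-labelled normal libraries A or B (limma adjusted p = 0.0532 to 0.0787), nor Psat1 without stressed libraries A or B, normal libraries A or B or WT-labelled normal libraries A, B or C (limma adjusted p = 0.0544 to 0.264). Slc3a2 was not called without stressed libraries A or B, normal libraries B or C, WT-labelled stressed libraries A or B or WT-labelled normal libraries A, B or C (limma adjusted p = 0.0541 to 0.213). Of 25 antioxidant genes 1 rose, Hmox1 (0.82, SE 0.19, adjusted p = 0.0359), heme oxygenase, and 1 fell, Gpx4 (-0.32, SE 0.06, adjusted p = 0.0139), which reduces lipid peroxides, by limma (median -0.038). Hmox1 was not called without stressed libraries A or B, normal libraries A or C or WT-labelled normal libraries A, B or C (limma adjusted p = 0.0528 to 0.256), nor Gpx4 without stressed libraries A or B (limma adjusted p = 0.0698 to 0.115). Of 25 p53 targets and BCL2 family genes Bcl2 (0.54, SE 0.13, adjusted p = 0.0359) rose and Ccng1 fell (median -0.078), and without normal library A Mcl1, named after its values were seen, fell too (adjusted p = 0.0454). Bcl2 was not called without stressed libraries A or B, normal libraries A or C or WT-labelled normal libraries A, B or C (limma adjusted p = 0.0519 to 0.195), nor Ccng1 without stressed libraries A or B (limma adjusted p = 0.0685 to 0.119).

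Of 40 interferon-stimulated genes 1 rose and 2 fell, with a median of -0.065. Ifitm1, an interferon-induced membrane protein of stem cells, was measured at 245 and 241 CPM in the stressed libraries and 512, 494 and 524 CPM in the normal libraries (log2 difference -1.07, SE 0.05, limma adjusted p = 4.87e-07). Both stressed values were below all normal values. Ifitm3, its neighbour in the same family, had levels of 420.1 and 413 CPM against 466, 479 and 497 CPM (stressed against normal, log2 difference -0.21, SE 0.05, limma adjusted p = 0.03). Ifi47, an interferon-induced GTPase, had levels of 265 and 285 CPM against 216, 215 and 228 CPM (stressed against normal, log2 difference 0.33, SE 0.07, limma adjusted p = 0.0214). Ifitm3 was not called without stressed libraries A or B, normal libraries B or C or WT-labelled normal libraries B or C (limma adjusted p = 0.0502 to 0.181), nor Ifi47 without stressed libraries A or B or normal library B (limma adjusted p = 0.0524 to 0.184). Of 22 genes of MHC class I and antigen processing 2 rose and none fell (median -0.0065). H2-K1, a classical class I heavy chain, was measured at 2613 and 2613 CPM in the stressed libraries and 2078, 2078 and 2078 CPM in the normal libraries (log2 difference 0.33, SE 0.02, limma adjusted p = 4.39e-06). B2m, the class I light chain, was measured at 2078 and 2161 CPM in the stressed libraries and 1679, 1721 and 1636 CPM in the normal libraries (log2 difference 0.34, SE 0.04, limma adjusted p = 0.00082). H2-K1 is tied within each group, so its standard error is too small, and its copies in the H2 region can share reads.

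Signalling lists held 0 to 3 calls each. The share called was 9.09% of the NF-kB list and 12.5% of the BMP and TGF-beta list. No member of the JAK-STAT or the Id and E protein list was called, against 4.87% of all genes tested. Of 22 NF-kB factors and targets 2 fell, with a median of -0.18. Traf1, a TNF receptor adaptor, was measured at 18.6 and 12.9 CPM in the stressed libraries and 40.7, 40.1 and 33.2 CPM in the normal libraries (log2 difference -1.29, SE 0.19, limma adjusted p = 0.00264). Bcl3, an atypical IkB protein, had levels of 13.8 and 11 CPM against 20.2, 25.5 and 25.8 CPM (stressed against normal, log2 difference -0.94, SE 0.20, limma adjusted p = 0.024). Traf1 and Bcl3 were lower in both stressed libraries, and Nfkb1, named after its values were seen, was called higher without normal library C (adjusted p = 0.046). Bcl3 was not called without stressed libraries A or B or normal libraries B or C (limma adjusted p = 0.0641 to 0.192). No gene of JAK-STAT and cytokine feedback was called (25 tested, median -0.11), with Socs2, a feedback inhibitor, at -0.41 (SE 0.12, limma adjusted p = 0.0841) and Jak1, a receptor kinase, at -0.16 (SE 0.05, limma adjusted p = 0.126). Of 24 BMP and TGF-beta genes 2 rose and 1 fell (median -0.071). Eng, the coreceptor endoglin, was measured at 149 and 144 CPM in the stressed libraries and 204, 240.0 and 218 CPM in the normal libraries (log2 difference -0.59, SE 0.08, limma adjusted p = 0.00142). Tgfb1, a TGF-beta ligand, had levels of 208 and 204 CPM against 134, 155 and 148 CPM (stressed against normal, log2 difference 0.50, SE 0.09, limma adjusted p = 0.00876). Tgfbr3, the coreceptor betaglycan, had levels of 179.5 and 179 CPM against 120.0, 142 and 145 CPM (stressed against normal, log2 difference 0.41, SE 0.09, limma adjusted p = 0.0302). The ligand rose and the coreceptors moved in opposite directions, Tgfbr3 up and Eng down. Tgfb1 was not called without stressed libraries A or B (limma adjusted p = 0.0714 to 0.0791), nor Tgfbr3 without stressed libraries A or B or normal library A (limma adjusted p = 0.0507 to 0.158). Of 8 Id and E protein genes, the family of Id1, none was called (median -0.035), with Tcf3, an E protein, at 0.27 (SE 0.09, limma adjusted p = 0.14) and Hes1, a bHLH repressor, at -0.74 (SE 0.43, limma adjusted p = 0.409).

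Beside the immunoglobulin genes, the called genes named for the size of their difference were low in level. Rimbp3 had 0 reads in both stressed libraries and 2.82, 1.83 and 6.33 CPM in the normal libraries, at least 27.1-fold lower (limma adjusted p = 0.00424). Nes, the intermediate filament nestin, had 0 reads against 4.8, 6.95 and 0.773 CPM, at least 25.1-fold lower (0.00476), and Abcg4, a sterol transporter, 0 reads against 2.78, 2.68 and 1.13 CPM, at least 17.3-fold lower (0.00912). These 3 had reads in every normal library and 0 reads in both stressed ones. Genes with a log2 CPM of 0 or less in both stressed libraries, here and in the lists above, could pass the filter only through the normal libraries. The filter thus chose such genes for their level there, and their presence in the normal libraries is not read as a result. Scara5, a ferritin receptor, was at least 13.1-fold lower, Yap1, the Hippo pathway coactivator, at least 13.0-fold and Syce1, a synaptonemal complex protein, at least 11.4-fold, each with 0 reads in both stressed libraries (limma adjusted p = 0.0209, 0.0214 and 0.00925). Stap2, Zfp658 and Srms had 1.83 to 3.35, 2.32 to 4.52 and 3.85 to 4.09 CPM in the normal libraries and no more than 0.0584, 0.102 and 0.205 CPM in the stressed ones. Scara5 was not called without stressed libraries A or B, normal libraries A or B or WT-labelled normal libraries A or B (limma adjusted p = 0.0565 to 0.0847), nor Yap1 without stressed libraries A or B, normal libraries A or B or WT-labelled normal libraries A or C (limma adjusted p = 0.05 to 0.0798). Srms was not called without stressed library B (limma adjusted p = 0.0568). Emp2, a membrane protein, had 2.21 and 1.18 CPM in the stressed libraries, 0 reads in normal libraries A and B and 0.097 CPM in C (limma adjusted p = 0.00838). Emp2 passed the filter only through the stressed libraries. Prr11, a gene expressed from S phase to mitosis, was measured at 12.5 and 13.3 CPM in the stressed libraries and 2.72, 5.78 and 2.21 CPM in the normal libraries (log2 difference 1.98, SE 0.44, limma adjusted p = 0.0258). Emp2 was not called without stressed library A (limma adjusted p = 0.0848), nor Prr11 without stressed libraries A or B or normal libraries A or C (limma adjusted p = 0.0655 to 0.16).

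The same comparison in WT-labelled HSCs, which shares no library with it, called 503 genes (3.51%), 238 (1.66%) higher and 265 (1.85%) lower. Both comparisons take their spread from the same limma fit, so the standard error of a gene is equal in both. Their calls are therefore not independent tests. Of the 699 calls in KO-labelled HSCs, 620 (88.7%) had the same sign in WT-labelled HSCs. The share with the same sign over all genes tested is not given here, so this percentage has no background to be set beside. In both comparisons 144 genes rose and 115 fell, together 37.1% of the KO-labelled and 51.5% of the WT-labelled calls, while 3 genes (Fos, Hnrnpu and Rpl41) were called in opposite directions. The medians of the G2/M list were 1.05 and 0.95, of the platelet list 0.51 and 0.34, and of the mitochondrial DNA transcripts -1.47 and -1.16 in KO-labelled and WT-labelled HSCs.

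The difference between the KO-labelled and WT-labelled changes was tested directly, and 3 genes (0.0209%) were called by limma, with 1346 at an unadjusted p under 0.05. For mt-Co1 the log2 CPM was 9.92 and 9.97 stressed and 11.85, 11.85 and 11.85 normal in KO-labelled and 10.05 and 10.04 stressed and 11.25, 11.35 and 11.25 normal in WT-labelled libraries, so that the fall was larger in KO-labelled HSCs (difference of the changes -0.66, SE 0.05, adjusted p = 0.000196). For Hnrnpu, the nuclear scaffold hnRNP, the values were 10.21 and 10.26 stressed and 9.82, 9.96 and 9.85 normal in KO-labelled and 9.99 and 10.01 stressed and 10.16, 10.22 and 10.18 normal in WT-labelled libraries (difference 0.54, SE 0.06, limma adjusted p = 0.0139). For Fos the values were 3.93 and 3.89 stressed and 3.27, 2.59 and 3.16 normal in KO-labelled and 3.11 and 3.29 stressed and 4.73, 4.88 and 4.73 normal in WT-labelled libraries (difference 2.49, SE 0.32, limma adjusted p = 0.0321). Hnrnpu and Fos were higher in stressed than in normal KO-labelled libraries and lower in stressed than in normal WT-labelled libraries. The count of 3 became 26 without WT-labelled stressed library B, 6 without KO-labelled normal library B and 1, mt-Co1, without KO-labelled normal library C or WT-labelled normal library B or C. The call of mt-Co1 held without each single library (adjusted p = 7.11e-05 to 0.00705). That of Hnrnpu was lost without KO-labelled stressed library A or B or normal library C, WT-labelled stressed library A or normal library B or C (adjusted p = 0.0506 to 0.116). That of Fos was lost without KO-labelled stressed library A or B or normal library C, WT-labelled stressed library A or any WT-labelled normal library (adjusted p = 0.0663 to 0.163). The next smallest p-values among called genes did not pass: Igkc (limma adjusted p = 0.0684), Ddx17 (-0.86, 0.0684), Ncl (0.32, 0.0752), and the ribosomal RNA gene Rn18s-rs5 (-0.44, 0.0752) and Gm23935, annotated as a miRNA (-0.82, 0.0752). For genes outside these 3, a call in 1 genotype and not in the other is not shown by the main fit to be a difference between them. Igha, Ighg2b and other immunoglobulin genes were called for the difference in some alternatives. These were no variance trend, no filter, the filter at 2 and log2(CPM + 1). Igha and Ighg2b had passed the filter only through the KO-labelled stressed libraries, so these calls are not read as a result.

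**Figure D5:**
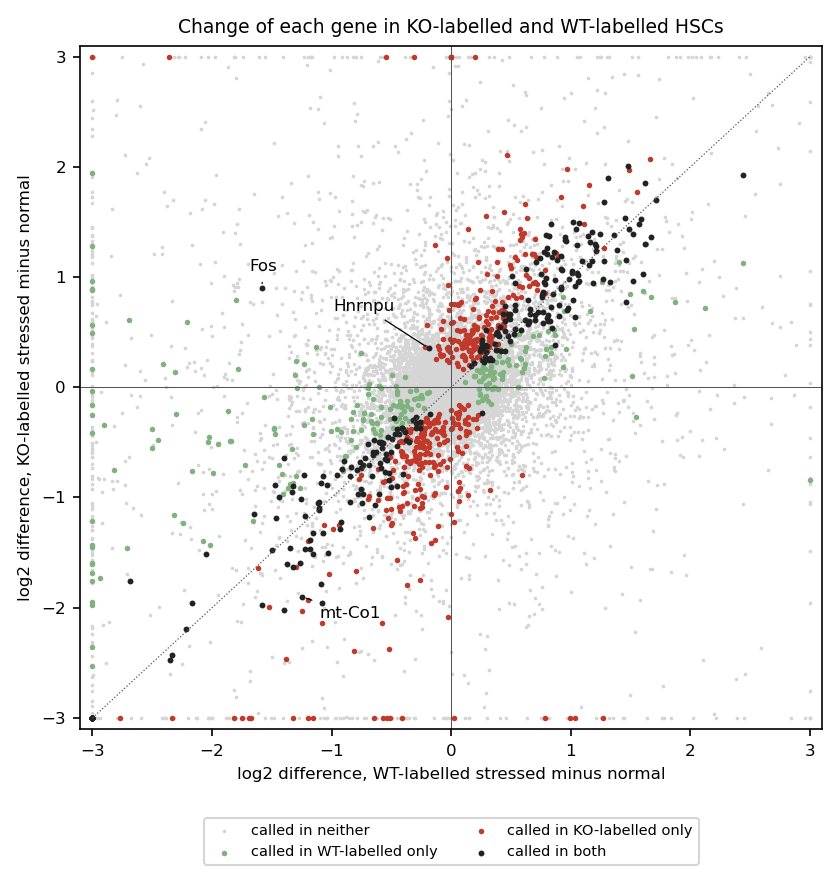
Log2 difference, stressed minus normal, in WT-labelled against KO-labelled HSCs for each gene tested (values beyond 3 in size drawn at 3). Most called genes lie in the quadrants of equal sign, and the 3 labelled genes, mt-Co1, Fos and Hnrnpu, are those whose changes differed between the genotypes.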

How the data were processed

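RNA sequencing of 10 HSC libraries gave 1 deposited table of 20270 genes. Per the submitters' processing notes, Bowtie2, featureCounts and the build mm10 were used, with versions and settings not given in the sources used here; stranding is not stated. The deposited values are log2 CPM made by the authors. All libraries share nearly one distribution, so the values had been quantile normalized, which ties abundant genes and understates their spread; limma voom is named only in the table's own name. The lowest value stands for 0 reads, and CPM was computed here as 2 to the power of the deposited value. Depth was estimated from the steps of the low values, because the table holds no counts.

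Genes with log2 CPM above 0 in at least 2 of the 5 KO-labelled libraries were kept. limma 3.58.1 (R 4.3.3) with a variance trend was fitted to 4 group means over all 10 libraries (6 residual degrees of freedom), with Benjamini-Hochberg adjustment over 14348 genes and a threshold of 0.05. With 2 against 3 libraries an exact permutation test of 1 gene cannot reach 0.05, so only the fit across genes was used. The difference of changes was a contrast of the same fit. The fit was also run on simulated data as a check of the code. These held independent Gaussian noise without ties, quantile normalization or a lowest value, so they do not check the calls given here. Figures were drawn with Python 3.11.15 and matplotlib 3.10.9. Gene positions are from GENCODE vM21 (20199 of 20270 IDs matched) and promoter windows from RefSeq GRCm38.p6.

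Named genes were Id1, the 12 largest called rises and falls without overlap (predicted models left out), from each list the called members with the smallest p, 4 at most (2 where none was called), and up to 8 called genes with the smallest p for the difference between genotypes; others are said to be named after their values were seen. Some genes that the rule names are not reported here. The members and the 45 lists were chosen with earlier results of these data known, 2 of them after the values were seen, so counts and medians describe them without a test. Letters A to C were not used to pair libraries across groups in the main fit. Alternatives were other filters, thresholds, scalings, moderation, weights, a length trend, a replicate block, the KO-labelled libraries alone and leaving out each library.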

Additional observations from a re-analysis of the deposited data

Results flagged for a closer look

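3 genes changed differently in KO-labelled and WT-labelled HSCs by limma's test of the difference itself. The fall of mt-Co1 in stressed cells was -1.90 in KO-labelled and -1.25 in WT-labelled libraries, a difference of -0.66 on the log2 scale (limma adjusted p = 0.000196). Its value was tied at 11.85 in all 3 KO-labelled normal libraries by the authors' scaling, which makes its error too small. Fos, an AP-1 subunit, changed by 0.90 in KO-labelled and -1.58 in WT-labelled libraries, a difference of 2.49 (limma adjusted p = 0.0321). Hnrnpu, a nuclear hnRNP, changed by 0.35 and -0.19, a difference of 0.54 (limma adjusted p = 0.0139). In Fos and Hnrnpu the stressed libraries were higher than the normal ones in KO-labelled HSCs and lower in WT-labelled HSCs, with no overlap in either. Single libraries left out gave adjusted p-values of 0.0145 to 0.163 for Fos and 0.00181 to 0.116 for Hnrnpu. Without a variance trend mt-Co1 and Hnrnpu were not called for the difference, and with the letter as a replicate block Fos was not. The causes were not tested.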

How the results depend on the processing

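All 699 calls kept their direction in every alternative. With single libraries left out this was fixed in advance, because the groups did not overlap in any called gene. Other filters, thresholds and moderation leave the difference itself unchanged, so the kept direction is no check of the calls. Of the 699, 157 stayed called in each of the 22, among those that tested them, that keep the threshold of 0.05 and need no fold. The count of 699 became 362 without a variance trend, 375 from the 5 KO-labelled libraries alone, 277 at an adjusted p under 0.01, 223 at 2-fold or more, and 287 to 693 with single libraries left out. With the letter as a replicate block it was 444. Deviations of same-letter libraries correlated between -0.03 and 0.03 over all genes tested. Noise of genes with low levels weighs in this value, so it does not settle whether the letters pair libraries. The 3 genes that changed differently between genotypes became 9 without a variance trend, 12 without the filter, 23 with the filter at 2, 15 on log2(CPM + 1), 5 with library weights, 1 at an adjusted p under 0.01, 1 at 2-fold or more, 5 with a floor of 3 reads (an alternative chosen after seeing the data), and 1 to 26 with single libraries left out (26 without WT-labelled stressed library B, 1 without KO-labelled normal library C or WT-labelled normal library B or C). Of 45 list medians 15 changed sign in 1 or more alternatives: mast cell markers -0.046 with the filter at 2 and -0.021 with the filter over all 10 libraries; DNA methylation and Polycomb -0.0023 with the replicate block and -0.019 to 0.061 with single libraries left out; granulocyte and monocyte genes -0.42 to 0.021 with single libraries left out, the positive value without KO-labelled normal library A; T and NK cell markers 0.16 with the filter at 2 (-0.22 as reported); and 11 others whose reported medians were at most 0.071 in size and at most 0.092 with the other sign. Causes were not tested. Of 127 named called genes, 47 held in each of the same 22. With 1 stressed library left the spread is taken from the other groups. Genes at the lowest value have no measurable fall below it, and 2 stressed libraries limit every comparison.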

Other observations

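Of the 699 genes called between stressed and normal KO-labelled HSCs, 495 were on no list, and the following were chosen after their values were seen from calls that held in every alternative. They are examples and not a count of any group. The first 5 are known from the actin cytoskeleton or integrin signalling. Actb, beta-actin, had 2443 and 2443 CPM against 1636, 1559 and 1559 CPM (log2 difference 0.62, SE 0.03, limma adjusted p = 4.87e-07). Its equal values are ties made by the authors' scaling, so its error is too small. Fermt3, the integrin activator kindlin-3, had 988 and 994 CPM against 720.2, 771 and 725 CPM (log2 difference 0.42, SE 0.04, limma adjusted p = 0.000132). Plek, the platelet protein pleckstrin, had 259 and 251 CPM against 140.1, 121 and 119 CPM (log2 difference 1.01, SE 0.11, limma adjusted p = 0.000335). These 3 rose, without overlap between the stressed and normal libraries. Tns2, a tensin of focal adhesions, had 11.4 and 12.7 CPM against 72.1, 54.9 and 74.6 CPM (log2 difference -2.47, SE 0.18, limma adjusted p = 1.97e-05). Ahnak, a giant membrane scaffold, had 9.13 and 13.2 CPM against 47.3, 46.7 and 35.3 CPM (log2 difference -1.96, SE 0.24, limma adjusted p = 0.000845). Tns2 and Ahnak fell by over 2-fold on average, and both also fell in WT-labelled HSCs (log2 differences -2.35 and -2.17, limma adjusted p = 4.23e-05 and 0.000633).

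A further 3 examples are known from chromatin or cell division. Hmgb2, a chromatin protein of cycling cells, had 626 and 585 CPM against 391, 375 and 364 CPM (log2 difference 0.68, SE 0.05, limma adjusted p = 2.95e-05). Stmn1, the microtubule destabilizer stathmin, had 878 and 914 CPM against 649, 607 and 607 CPM (log2 difference 0.53, SE 0.04, limma adjusted p = 5.69e-05). Cep55, a midbody protein of cytokinesis, had 34.3 and 38.4 CPM against 12.4, 9.72 and 12.1 CPM (log2 difference 1.68, SE 0.23, limma adjusted p = 0.00151). All 3 rose, in the direction of the G2/M list. The next 4 examples fell. Mllt3, a chromatin reader linked to HSC maintenance, had 118 and 117 CPM against 202, 202 and 201 CPM (log2 difference -0.78, SE 0.08, limma adjusted p = 0.000204). Pdzk1ip1, a membrane protein used to mark HSCs, had 131 and 128 CPM against 235, 215 and 248 CPM (log2 difference -0.84, SE 0.08, limma adjusted p = 0.000149). Tgm2, tissue transglutaminase, had 162 and 151 CPM against 277, 259.6 and 283 CPM (log2 difference -0.80, SE 0.07, limma adjusted p = 9.69e-05). Malat1, a nuclear long noncoding RNA, had 431 and 463 CPM against 700.4, 746 and 775 CPM (log2 difference -0.73, SE 0.06, limma adjusted p = 5.56e-05). Each of these 4 was lower in both stressed libraries than in every normal library.

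Serinc3, a membrane protein of the serine incorporator family, had 3687 and 3687 CPM against 2161, 2273 and 2161 CPM (log2 difference 0.75, SE 0.03, limma adjusted p = 3.5e-07). Adgrg1, the adhesion receptor GPR56 of HSCs, had 4492 and 4492 CPM against 2613, 2613 and 2848 CPM (log2 difference 0.74, SE 0.07, limma adjusted p = 0.000181). Both are tied in the stressed libraries by the authors' scaling, so their errors are too small.

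The female-specific transcript Xist (log2 CPM 5.80 to 7.18) and the Y-linked gene Ddx3y (4.83 to 5.87) were both present in all 10 libraries.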
